A study of Homo sapiens with 6 samples.

Results

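The mRNA of 8 genes that carry out or hold back caspase-driven cell death was examined in BaF3-T315I cells. They were the caspases Casp2, Casp6, Casp8 and Casp9, the caspase-activating scaffold Apaf1, and the inhibitors of apoptosis Xiap, Birc2 and Birc3. They were taken by gene symbol from a table of 22413 listed genes, and all 8 were found once each. BaF3-T315I is a murine pro-B line that needs interleukin-3 in its parental form and was stably transfected with BCR-ABL carrying the T315I mutation, so both groups carry this oncogene. The groups were 3 control samples, for which the labels name neither vehicle nor duration, and 3 samples exposed for 48 h to 1.1 µM of I13, an indole-3-butyric acid derivative that inhibits histone deacetylases. The levels are FPKM, fragment counts scaled by gene length and library size. Comparisons between genes rest on a single length per gene, from an annotation that is not given in the sources used here. The summed FPKM also differed between samples, from 345114.7 in I13 replicate 2 to 367951.7 in control replicate 1.

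Caspases are proteases made as inactive precursors. Initiator caspases are switched on when they are brought together on a platform: caspase-8 at death receptors, caspase-9 on the apoptosome that APAF1 forms once cytochrome c leaves the mitochondria, and caspase-2 on the PIDDosome. Initiators then cleave executioner caspases, which take the cell apart. XIAP binds and blocks caspases directly, while the proteins of Birc2 and Birc3, cIAP1 and cIAP2, are ubiquitin ligases of the tumor necrosis factor receptor complexes. Caspase activity is set largely by cleavage and binding of the proteins, which mRNA levels do not measure. Leukemic cells that depend on BCR-ABL are known for a raised threshold to this pathway, and one question of the study was whether reduced proliferation under I13 comes with apoptosis.

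None of the 8 genes was called changed after I13. Their differences on the log2 scale ran from -0.21 for Birc3 to 0.29 for Casp6, with 5 genes higher and 3 lower, and a median of 0.056 against -0.005 for all 12163 genes tested. Calls were made in limma on log2(FPKM + 0.1), with p-values adjusted over all genes tested. They needed an adjusted p under 0.05 together with a log2 difference of 0.58 or more in either direction, which is 1.49-fold. This rule called 0.0411% of the genes tested, so 0 of 8 is near the background. The smallest adjusted p among the 8 was 0.309 in limma, and none had an unadjusted p below 0.05, against 18.6% of all genes tested. With the replicate number as a block the rule called 1.89% of the genes tested and again 0 of the 8, with a smallest adjusted p of 0.2 in limma and 0 of 8 at an unadjusted p below 0.05, against 28.0% of all genes. Voom on the recovered fragments with the same block called 4.14% of the genes and 0 of the 8, of which 2, Casp6 and Birc3, had an unadjusted p below 0.05, against 30.8% of all genes.

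**Figure D1:**
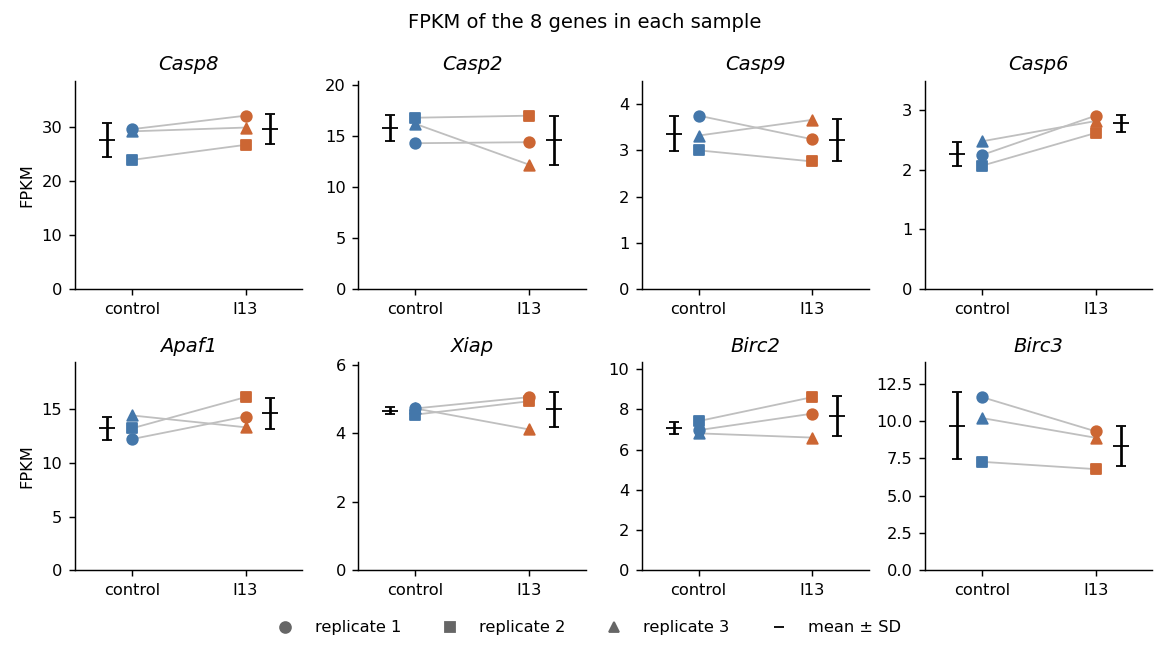
FPKM (vertical axes, each from 0) of the 8 genes in the 3 control and 3 I13 samples, with grey lines joining samples of the same replicate number and black bars giving the mean ± SD. Control and I13 values overlapped in 7 of the 8 panels, and Casp6 was the exception.

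Casp8 (ENSMUSG00000026029) encodes the initiator of the death receptor pathway and was the most abundant of the 8 mRNAs by FPKM. Control replicates 1, 2 and 3 held 29.6, 23.9 and 29.2 FPKM of it, and I13 replicates 1, 2 and 3 held 32.1, 26.7 and 29.9 FPKM. The groups overlapped, and replicate 2 was the lowest sample of each. The mean was 27.6 ± 3.19 FPKM in the control and 29.6 ± 2.73 FPKM after I13 (SD, n = 3 each), and the log2 fold change was 0.10 with a 95% interval from -0.18 to 0.39. Each I13 sample lay above the control of the same number, by 0.12, 0.16 and 0.04 on the log2 scale, and the block narrowed the interval to between -0.07 and 0.28. These differences did not pass the test, with an adjusted p of 0.677 from limma. The log2 fold change was 0.01 without control replicate 2, 0.04 without I13 replicate 1, 0.16 without control replicate 1 and 0.18 without I13 replicate 2.

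Casp2 (ENSMUSG00000029863), which encodes the initiator engaged by the PIDDosome, had 14.3, 16.8 and 16.2 FPKM in the controls, replicates 1 to 3, and 14.4, 17.0 and 12.2 FPKM in the I13 samples. Replicates 1 and 2 were nearly the same in both groups, and the lower I13 mean came from replicate 3 alone, 0.40 below its control on the log2 scale. The log2 fold change was -0.12 (95% interval -0.45 to 0.20, adjusted p = 0.67 from limma). It was -0.01 without I13 replicate 3, -0.08 without control replicate 2, -0.19 without control replicate 1 and -0.24 without I13 replicate 2. Fragments were counted per gene, so the long and short forms of the caspase-2 transcript were not separated.

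Casp9 (ENSMUSG00000028914), the initiator of the mitochondrial pathway, had a mean of 3.29 FPKM over the 6 samples, against 28.6 FPKM for Casp8, which was 8.69 times as high. Its values were 3.75, 3.00 and 3.32 FPKM in the controls and 3.24, 2.76 and 3.66 FPKM after I13, in the order of the replicate numbers, and the groups overlapped. The pairs disagreed in direction, with I13 lower in replicates 1 and 2 and higher in replicate 3. Its log2 fold change was -0.06 (95% interval -0.42 to 0.30, adjusted p = 0.858 from limma). This difference turned to 0.02 without control replicate 1 and 0.04 without I13 replicate 2, and was -0.14 without control replicate 2 and -0.16 without I13 replicate 3.

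Apaf1 (ENSMUSG00000019979), which encodes the scaffold that gathers caspase-9, stood at 12.2, 13.2 and 14.4 FPKM in the controls and at 14.3, 16.1 and 13.3 FPKM after I13. The groups overlapped, with control replicate 3 above 2 of the 3 I13 samples. The log2 fold change was 0.13 (95% interval -0.13 to 0.40, adjusted p = 0.55 from limma). Leaving out I13 replicate 2 gave 0.06, leaving out control replicate 1 gave 0.08, and the highest value, 0.20, came without I13 replicate 3. The level of Casp9 relative to Apaf1 was 0.307, 0.228 and 0.231 in the controls and 0.227, 0.171 and 0.275 after I13, which overlapped.

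Casp6 (ENSMUSG00000027997) encodes an effector caspase that cleaves nuclear lamins and was the least abundant of the 8. Its levels were 2.25, 2.07 and 2.48 FPKM in the controls and 2.91, 2.62 and 2.82 FPKM after I13, again by replicate number. Every I13 sample lay above every control, which held for no other gene of the 8 and for 25.2% of all genes tested in one direction or the other, 9.82% with higher values after I13. The means were 2.27 ± 0.204 and 2.78 ± 0.149 FPKM (SD, n = 3 each), a 1.22-fold difference with a 95% interval from 0.977 to 1.52. On the log2 scale this was 0.29 with an interval from -0.03 to 0.60, and the adjusted p was 0.309 from limma without the block and 0.212 with it. Voom with the block gave an unadjusted p of 0.0404 and an adjusted p of 0.142. The gene rested on 204 to 286 fragments per sample, against 1218 to 1638 for Casp8.

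Xiap (ENSMUSG00000025860), whose protein blocks caspases by direct binding, was the most even gene within the controls, at 4.72, 4.54 and 4.72 FPKM, and stood at 5.05, 4.93 and 4.11 FPKM after I13. I13 replicates 1 and 2 lay above all controls and I13 replicate 3 below all of them. The means were 4.66 ± 0.0999 and 4.70 ± 0.51 FPKM (SD, n = 3 each), and the log2 fold change was 0.01 (95% interval -0.27 to 0.28, adjusted p = 0.984 from limma). The difference changed sign without control replicate 2, I13 replicate 1 or I13 replicate 2.

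Birc2 (ENSMUSG00000057367), the gene of cIAP1, was found at 6.97, 7.42 and 6.81 FPKM in the controls and at 7.79, 8.61 and 6.60 FPKM after I13. As for Xiap, replicates 1 and 2 were higher after I13 and replicate 3 was lower, and the groups overlapped. The log2 fold change was 0.11 (95% interval -0.18 to 0.40, adjusted p = 0.671 from limma), and single samples moved it to 0.02 without I13 replicate 2 and 0.21 without I13 replicate 3.

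Birc3 (ENSMUSG00000032000), the gene of cIAP2 and a known target of NF-kB, varied most within the controls. The controls held 11.6, 7.27 and 10.2 FPKM and the I13 samples 9.31, 6.78 and 8.88 FPKM, by replicate number. The groups overlapped because replicate 2 was low in both, while each I13 sample lay below the control of its own number, by 0.32, 0.10 and 0.20 on the log2 scale. The log2 fold change was -0.21 with a 95% interval from -0.68 to 0.27 and an adjusted p of 0.616 from limma. With the block the interval narrowed to between -0.42 and 0.01 and the adjusted p was 0.2, and voom with the block gave an adjusted p of 0.147. The value without control replicate 2 was -0.40, that without control replicate 1 was -0.06 and that without I13 replicate 2 was -0.07, so single samples moved it by more than 1.5 times. Birc2 and Birc3 are paralogs, and how fragments that match both were counted is not given in the sources used here.

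**Figure D2:**
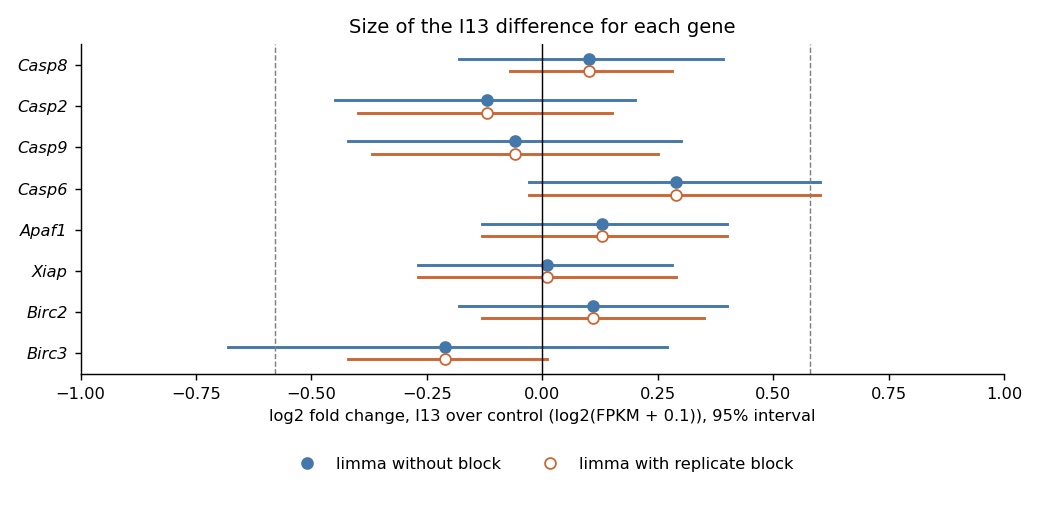
Log2 fold change of each gene, I13 over control, with its 95% interval (horizontal axis) in limma without the block (filled points) and with the replicate block (open points); dashed lines mark 0.58 in either direction. Without the block, the intervals of Casp6 (to 0.60) and Birc3 (to -0.68) reach past a dashed line and the other 6 do not.

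The intervals of the fit without the block give the size of change that the spread between these samples leaves possible. That spread may be technical, so the intervals may be too narrow for separate cultures. For 6 of the 8 genes the 95% interval of the log2 fold change lay wholly between -0.58 and 0.58, that is, under the 1.49-fold threshold in both directions. The exceptions were Casp6, with an upper bound of 0.60, and Birc3, with a lower bound of -0.68. With the block the interval of Birc3 also lay within these limits, and that of Casp6 still reached 0.60. The intervals cover single genes and were not widened for the number of genes. The share of all genes tested with an interval inside these limits is not given here.

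The order of the levels was the same in the means of both groups from Casp8 at the top to Casp6 at the bottom, except among Casp2 and Apaf1, whose I13 means were equal at 14.6 FPKM to 3 digits. Over the 6 samples the mean FPKM was 28.6 for Casp8, 15.2 for Casp2, 13.9 for Apaf1, 9.01 for Birc3, 7.37 for Birc2, 4.68 for Xiap, 3.29 for Casp9 and 2.53 for Casp6. The neighbours whose ranges over the 6 samples overlapped were Casp2 with Apaf1, Birc3 with Birc2 and Casp9 with Casp6. Casp8 lay at the 83.0th percentile of all genes tested by mean FPKM and Casp6 at the 24.4th.

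The summed FPKM of the 4 caspases was 49.9, 45.8 and 51.1 in the controls and 52.7, 49.1 and 48.6 after I13. That of the 3 inhibitors was 23.3, 19.2 and 21.7 in the controls and 22.2, 20.3 and 19.6 after I13. The caspase sum was thus 2.14, 2.38 and 2.35 times the inhibitor sum in control replicates 1 to 3 and 2.38, 2.42 and 2.48 times in the I13 replicates, higher than in the control of the same number 3 times out of 3, with the groups meeting at 2.38. Casp8 alone made up 52.2 to 59.3% of the caspase sum in the controls and 54.4 to 61.5% after I13. Within the inhibitors, the level of Birc2 relative to Birc3 was 0.600, 1.02 and 0.668 in the controls and 0.837, 1.27 and 0.743 after I13, so I13 exceeded the control of the same number 3 times out of 3 while the groups overlapped. These sums and ratios are descriptions and carry no test.

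For 5 of the 8 genes, more of the spread went with the replicate number than with treatment and the rest together. Of the sum of squares of log2(FPKM + 0.1) over the 6 samples, the replicate number held 82.2% for Birc3, 81.7% for Casp8, 72.3% for Casp9, 63.4% for Birc2 and 51.4% for Casp2. Treatment held 14.9%, 14.7%, 4.24%, 17.8% and 14.0% for the same genes. The replicate number has 2 degrees of freedom here and treatment has 1. The share of the replicate number was above that of treatment in 6 of the 8 genes and in 59.5% of all genes tested, and over 50% in 5 of the 8 and in 42.3% of all genes. Casp6 was the clearest exception, with 74.4% between the treatments and 20.4% between the replicate numbers. Replicate 2 was the lowest sample of both groups for Casp8, Casp9, Casp6 and Birc3, and the highest of both groups for Casp2 and Birc2. What the replicate numbers stand for is not given in the labels.

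**Figure D3:**
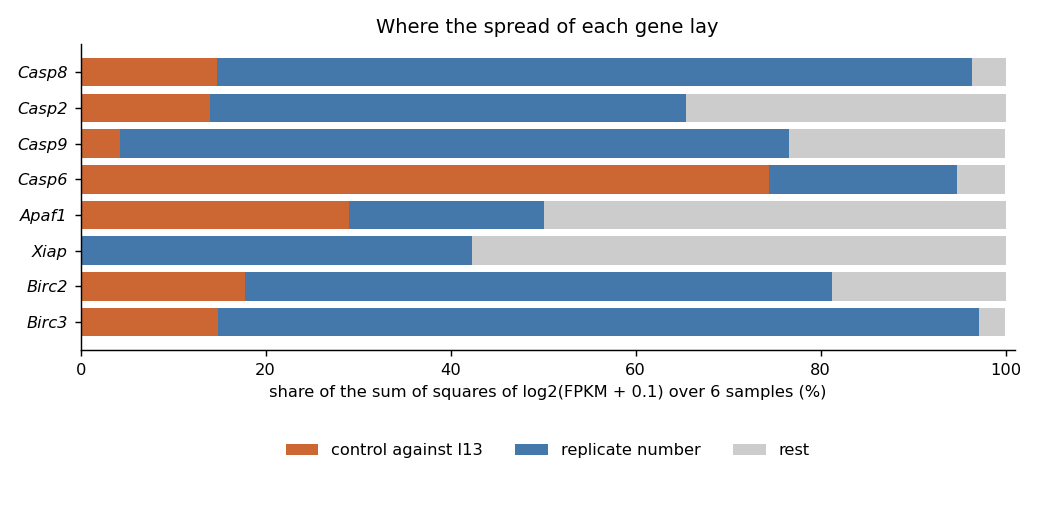
Share of each gene's sum of squares of log2(FPKM + 0.1) over the 6 samples (horizontal axis, in percent) that lay between control and I13, between the 3 replicate numbers, and in neither. Replicate number took 82.2% for Birc3 and 81.7% for Casp8, whereas treatment took 74.4% for Casp6.

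Genes with the most similar pattern over the 6 samples were found by Pearson correlation of log2(FPKM + 0.1), as a description. The closest were Rbbp5 for Casp2 (0.998), Eif2d for Casp8 (0.997), Tgtp2 for Casp6 (0.996) and Zfp763 for Birc2 (0.994). For Birc3 the closest was Tbc1d9b (0.989) and for Casp9 it was Dnpep (0.986). For Apaf1 and Xiap the closest were the small or predicted transcripts Gm26394 (0.998) and Gm23300 (0.98). Gm23300 had a mean of only 0.613 FPKM, near the filter of 0.5 FPKM, and Tgtp2 one of 1.36 FPKM. With only 6 samples, which share libraries and replicate numbers, between 54 and 418 genes had a correlation above 0.9 with each of the 8.

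Other genes of the pathway were followed with lists written from general knowledge, with earlier results of these data already known. Of the 54 genes of these lists that were tested, limma called 0 without the block, against 0.0411% of all genes tested. In that fit 14 had an unadjusted p below 0.05, against 18.6% of all genes. With the block it called 2, both elevated, against 1.36% of all genes tested in that direction. They were the death receptor gene Fas and the lamin gene Lmna, whose protein is a caspase-6 substrate. Voom with the block called 5, against 4.14% of all genes tested, of which Fas, Lmna, Casp4 and the kinase gene Stk3 were elevated and Fadd was decreased. Casp1, Casp4 and Stk3 are named here after their values were seen. Fas had 3.85, 2.42 and 4.19 FPKM in the controls and 6.49, 5.83 and 6.66 FPKM after I13, with no overlap. Its log2 fold change was 0.88, where limma gave an adjusted p of 0.116 without and 0.0472 with the block. Lmna stood at 13.3, 14.0 and 16.6 FPKM in the controls and at 22.8, 26.6 and 34.3 FPKM after I13, again without overlap, with a log2 fold change of 0.91 (adjusted p from limma 0.0989 without and 0.0312 with the block). In the blocked fit without both samples of one replicate number, the adjusted p of Fas from limma was between 0.0867 and 0.305, and that of Lmna between 0.0319 and 0.227. The blocked fits without replicate 2 or 3 called no gene at all, so the loss of both calls there was fixed. Without replicate 1, that fit called 78 genes elevated and 5 decreased. Lmna was still called there and Fas was not, with adjusted p from limma of 0.0319 and 0.0902.

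The other caspases followed here were Casp1 and Casp4, both inflammatory caspases, and 0 of the 2 were called by limma in either fit. Of all genes tested, 0.0411% were called without the block and 1.89% with it, so 0 of 2 is near the background. Casp1 had a log2 fold change of 0.22 (adjusted p = 0.375 from limma). Casp4 was listed at 7.00, 3.39 and 7.25 FPKM in the controls and at 8.27, 8.25 and 10.7 FPKM after I13, without overlap, and its adjusted p was 0.266 from limma and 0.0399 by voom with the block.

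At the death receptor platform, 0 of the 19 genes tested were called by limma without the block and 1, Fas, with it. The shares of all genes tested were 0.0411% and 1.89%. The median log2 fold change of the list was -0.019, and among its genes without overlap between the groups 1 was higher and 4 were lower after I13, against 9.82% and 15.4% of all genes tested. Another death receptor gene, Tnfrsf10b, named here after its values were seen, had 5.52, 4.42 and 4.76 FPKM in the controls and 3.88, 3.41 and 3.98 FPKM after I13. Its groups did not overlap and it was lower in 3 of 3 pairs, with a log2 fold change of -0.37 (95% interval -0.68 to -0.07, limma adjusted p = 0.203, or 0.101 in the blocked fit). Fadd, the adaptor that recruits caspase-8, was listed at 4.93, 4.04 and 4.55 FPKM in the controls and at 2.46, 2.74 and 3.54 FPKM after I13, without overlap. Its log2 fold change was -0.62 (95% interval -1.01 to -0.24), and the adjusted p was 0.136 from limma, 0.0794 with the block and 0.0295 by voom with the block. Cflar, which encodes the caspase-8 decoy cFLIP, stood at 6.60, 6.31 and 7.31 FPKM in the controls and at 6.36, 5.61 and 6.75 FPKM after I13, with a log2 fold change of -0.11. Casp8 was 4.49, 3.78 and 3.99 times as high as Cflar in the controls and 5.06, 4.76 and 4.43 times after I13, higher in each same-numbered pair, while the ranges overlapped at their edges. Ripk1 and Traf2, partners of the cIAPs in the receptor complex, had log2 fold changes of 0.24 (adjusted p = 0.394 from limma) and -0.21 (adjusted p = 0.368 from limma).

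**Figure D4:**
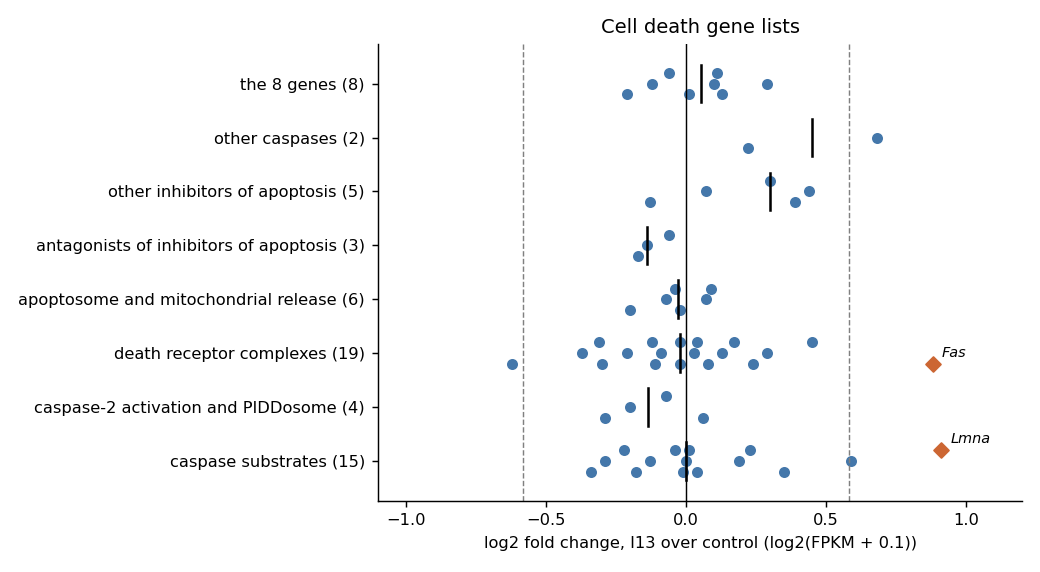
Log2 fold change, I13 over control (horizontal axis), of each tested gene of the 8 and of 7 lists of related genes, with the number tested in brackets; black ticks are list medians and dashed lines mark 0.58 in either direction. Orange diamonds are the genes with an adjusted p below 0.05 in limma with the replicate block, Fas at 0.88 and Lmna at 0.91.

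In the mitochondrial arm, none of the 6 genes tested was called by limma in either fit, with log2 fold changes from -0.20 to 0.09. Of all genes tested, these fits called 0.0411% without the block and 1.89% with it. Cycs, the gene of cytochrome c, was listed at 47.2, 58.1 and 45.5 FPKM in the controls and at 48.5, 47.6 and 47.2 FPKM after I13. Fragments from processed pseudogenes of Cycs may be split by the counting. Of the antagonists of the inhibitors, 0 of the 3 genes tested were called, against the same shares of all genes. Diablo, whose protein displaces caspases from XIAP, had a log2 fold change of -0.06 (95% interval -0.35 to 0.23). Xaf1, another XIAP antagonist, had a mean under 0.5 FPKM and was not tested, with 0.253 to 0.641 FPKM in the controls and 0.303 to 0.597 FPKM after I13.

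Among the other inhibitors of apoptosis, 0 of the 5 genes tested were called by limma in either fit. The shares of all genes tested were 0.0411% without the block and 1.89% with it. Birc5, the gene of survivin, which also acts in mitosis, had a log2 fold change of -0.13, and Birc6 one of 0.07. The other 3 were Naip genes, named here after their values were seen, with log2 fold changes of 0.44 for Naip2, 0.39 for Naip5 and 0.30 for Naip6. Naip2 did not overlap between the groups and had an adjusted p of 0.171 from limma, 0.077 with the block and 0.0295 by voom with the block, where its fold change stayed under the threshold. With them, 4 of the 5 genes were higher after I13, against 5989 of all 12163 genes tested. The median of the list was 0.304, against -0.005 for all genes tested. The 3 Naip genes set this median and were 3 of the 4 higher genes. The Naip genes are paralogs of one family whose fragments the counting could split, so their values are uncertain and not independent. For caspase-2, 0 of the 4 genes on its list were called by limma in either fit, against the same shares of all genes. Its partners Pidd1 and Cradd had log2 fold changes of 0.06 and -0.07. Of 15 caspase substrates, 1 was called by limma with the block, Lmna, against 1.89% of all genes tested. In that fit 8 of the 15 had an unadjusted p below 0.05, against 28.0% of all genes. Values were higher after I13 for 7 of the 15. The groups did not overlap for 3 higher and 3 lower substrates, against 9.82% and 15.4% of all genes tested.

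Across the series, library totals ran from 16762119 to 17722950 fragments, and the 8 genes rested on 204 to 2094 fragments each per sample. Of 11 markers of the parental pro-B line, 6 had a mean of at least 0.5 FPKM. Ebf1, Pax5, Vpreb1 and Igll1 were under that level, and Rag1 was not found by that symbol among the listed genes. The summed FPKM of this list was 472 to 929 in the controls and 951 to 1700 after I13. Nearly all of this sum came from the 6 genes at or above that level. Their single values are not given here, so the sum does not show a rise of the list as a whole. For 4 macrophage markers, 2 of them with a mean of at least 0.5 FPKM and Csf1r and Mrc1 under it, the sum was 21.2 to 45.0 in the controls and 49.0 to 85.2 after I13. For 4 erythroid markers, 2 of them at or above that mean, it was 0.633 to 1.27 and 2.41 to 8.30. Of 4 T cell markers 3 were among the listed genes, and they summed to at most 0.211 FPKM in any sample. Of 4 fibroblast markers only 1, Col1a1, was listed, at no more than 0.13 FPKM. The part of these shifts in the values of the 8 genes was not tested, and in bulk samples a change in the number of cells of a type and a change in its RNA per cell cannot be told apart.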

How the data were processed

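mRNA was sequenced from stranded libraries of 3 control and 3 I13 samples, grouped by their labels. The authors deposited FPKM values of each sample, without pooling. The submitters' processing notes name Trimmomatic, HISAT2, HTSeq and Cufflinks, without versions, and the build hg38; the labels give a human organism, but the line is murine and the table lists mouse genes, so the values were used as those of mouse genes. The annotation and the strand setting of the counting are not given in the sources used here, so antisense partners cannot be told apart. No mouse genome was used here.

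The comparison was run on log2(FPKM + 0.1) in limma 3.58.1 in R 4.3.3 (eBayes with a trend) in the 12163 genes with a mean of at least 0.5 FPKM, with Benjamini-Hochberg adjustment over these. A fold change on this scale understates that of low genes. Whole fragments and gene lengths were recovered from the FPKM values within 0.03 fragments, which gave the library totals, and were used for voom. The limma fits on log2(FPKM + 0.1), without and with the block, and the recovery were run on simulated data. The fragments simulated for these fits held no difference between replicate numbers, and voom was not run on them. Correlations of same-numbered samples' deviations from their group means were 0.15, 0.30 and 0.22, and those of other pairs -0.26 to 0.05. Same-numbered samples were treated as pairs only in the fits with the replicate block and where pairs are described. The main limma fit used no block, and the labels do not say that samples were paired. The labels do not say that samples came from separate cultures, so p-values measure the spread between these samples, which may be technical; chi-square per degree of freedom between replicates was 15.0 to 38.4 over genes with at least 10 fragments, far above counting noise.

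The genes named were the 8, partners set from general knowledge (Cflar, Fadd, Diablo, Cycs, Birc5, Birc6, Cradd, Pidd1, Xaf1, Traf2, Ripk1), any listed gene called in the limma fits, and, for each of the 8, the gene of the most similar pattern. The 8 were matched by symbol alone, but members, partners and lists were chosen with earlier results of these data known. A few genes of the lists and of the rule for named genes are not reported here. Dfna5 was taken as the older symbol of a listed substrate, and a septin gene appears in the table as the date 4-Sep. Alternatives were other pseudocounts, filters, scalings and eBayes settings, the replicate block, voom, no limit on the fold change and leaving out each sample. Leaving out each pair in the blocked fit was chosen after seeing the data. Plots were made in Python 3.11.15 with matplotlib 3.10.9.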

Additional observations from a re-analysis of the deposited data

How the results depend on the processing

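The count of 0 of the 8 genes called, in each direction and by adjusted p alone, was the same under all alternatives. The fits that left out one sample, and the blocked fits without replicate 2 or 3, called no gene at all. In these the count among the 8 was fixed, so they say nothing about the 8. Other fits without the block called few genes, as given below. Over 160 single values of the 8 genes, the adjusted p was at least 0.142, 150 kept their direction and 10 changed sign. Those were Xiap (0.01), which was -0.03 with quantile normalization, between -0.05 and 0.10 on leaving out one sample, and -0.04 and -0.05 in the blocked fits without replicate 1 and 2; Casp9 (-0.06), between -0.16 and 0.04 on leaving out one sample and 0.01 with the block without replicate 1; and Casp2 (-0.12), 0.01 with the block without replicate 3.

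Over all genes tested, 4 were elevated and 1 was decreased. A pseudocount of 0.01, median-ratio scaling and quantile normalization each gave 2 and 0, and 3 were decreased with no filter or with eBayes lacking the trend. With the replicate block 166 were elevated and 64 decreased, and with voom and the block 375 and 128. Leaving out one sample gave from 0 to 0 in both directions, where limma's unadjusted p was below 0.05 for 1478 to 2482 genes. The blocked fit gave 78 and 5 without replicate 1, and 0 and 0 without replicate 2 or 3, where 1638 and 3160 genes had an unadjusted p below 0.05. Fewer samples leave fewer degrees of freedom; otherwise the cause was not tested. The block changed no call among the 8 genes. The standard errors of the 8 log2 fold changes ran from 0.11 to 0.20 and were 0.14 both for Casp6, with 204 to 286 fragments per sample, and for Casp2, with 1513 to 2094.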
